A study of Mus musculus with 4 samples.

Results

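The macrophage CC chemokine genes described here are 10 genes, Ccl2, Ccl7, Ccl8, Ccl12, Ccl3, Ccl4, Ccl6, Ccl9, Ccl17 and Ccl24. They were chosen by symbol, each matched 1 row, and they stand among 31053 genes listed in every library. The data are single-cell RNA-seq counts of unique molecular identifiers (UMIs, tags that mark single RNA molecules) from kidneys of male C57BL/6 mice. All mice had ischemia-reperfusion (I/R) injury, in which blood flow to the kidney is stopped and restored. The 4 libraries were day 5, day 14 and day 28 after injury without the probiotic, and day 5 in mice given L. casei Zhang (Lac.z) by mouth at 1e9 CFU per day for 4 weeks before injury. No uninjured library and no later library with Lac.z was analysed here, and the labels used here do not say how many animals a library held. With 1 library a group no difference between groups could be tested. Intervals are exact 95% intervals that cover counting error only, and "higher" or "lower" in the comparisons below means a ratio past 1.5 either way with at least 50 UMIs over both sides.

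CC chemokines are small secreted proteins that bind G protein-coupled receptors and direct the movement of leukocytes along a gradient. Ccl2, Ccl7 and Ccl12 are ligands of CCR2, the receptor that brings monocytes out of the marrow and into injured tissue, and mouse Ccl8 is a ligand of CCR8. Ccl3 and Ccl4 are inflammatory chemokines that attract monocytes and T cells, and Ccl3 binds CCR1. Ccl6 and Ccl9 are CCR1 ligands of rodents. Ccl17 binds CCR4 on T cells and is known as a product of dendritic cells, and Ccl24 is an eotaxin that binds CCR3 on eosinophils. In the injured kidney, macrophages that arrive early and those that stay for repair are both known sources of such ligands.

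In the mm10 build, 8 of the 10 genes lie on chromosome 11 in 2 blocks that are 1456 kb apart. The first block spans 81.2 kb on the plus strand and holds Ccl2 (chr11:82035571-82037453), Ccl7 (chr11:82045712-82047525), Ccl12 (chr11:82101845-82103400) and Ccl8 (chr11:82115185-82116799). The second spans 91.8 kb and holds Ccl9 (chr11:83572919-83578636), Ccl6 (chr11:83587882-83593087) and Ccl3 (chr11:83647844-83649355) on the minus strand and Ccl4 (chr11:83662584-83664683) on the plus strand. Ccl17 lies at chr8:94810453-94812036 on the plus strand and Ccl24 at chr5:135569937-135573049 on the minus strand. Ccl2 overlaps Gm17268 and Ccl6 overlaps E230016K23Rik, both on the other strand. No source used here says whether counting used strand, so reads of these pairs may not be told apart.

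Promoter sequences from RefSeq (GRCm38.p6) were found for 6 of the 10 genes, and 5 of them are printed here because the results below turn on which of these genes move together. Each run is the 250 bases before the start site, 5′ to 3′ on the gene's own strand. Ccl6 (chr11:83593088-83593337, minus strand) and Ccl9 (chr11:83578637-83578886, minus strand) stand next to each other and were both higher in repair-like macrophages. At a finer sub-clustering Ccl9 lay within 1.5-fold. Capitals mark the longest run Ccl6 and Ccl9 share, 13 bases that 5 of 32851 promoters hold. Ccl3 and Ccl17, whose levels did not run together, share 10 bases that 13 promoters hold.
Ccl6: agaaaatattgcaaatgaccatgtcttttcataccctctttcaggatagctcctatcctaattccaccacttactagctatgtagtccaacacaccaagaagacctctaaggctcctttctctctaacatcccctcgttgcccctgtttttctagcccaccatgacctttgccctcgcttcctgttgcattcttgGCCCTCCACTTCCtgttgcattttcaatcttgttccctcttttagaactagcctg
Ccl9: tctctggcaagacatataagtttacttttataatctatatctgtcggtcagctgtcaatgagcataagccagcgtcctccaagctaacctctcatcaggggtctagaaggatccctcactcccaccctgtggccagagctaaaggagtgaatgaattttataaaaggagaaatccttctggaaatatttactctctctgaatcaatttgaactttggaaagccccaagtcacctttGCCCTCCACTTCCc
Ccl8 (chr11:82114935-82115184, plus strand) and Ccl12 (chr11:82101595-82101844, plus strand) are neighbours. The level of each differed between macrophage states, and the levels of the pair ran together. Capitals mark their longest shared run, 8 bases that end 120 bases before both starts and that 0.983% of promoters hold. Ccl8 shares a longer run, 9 bases, with Ccl9.
Ccl8: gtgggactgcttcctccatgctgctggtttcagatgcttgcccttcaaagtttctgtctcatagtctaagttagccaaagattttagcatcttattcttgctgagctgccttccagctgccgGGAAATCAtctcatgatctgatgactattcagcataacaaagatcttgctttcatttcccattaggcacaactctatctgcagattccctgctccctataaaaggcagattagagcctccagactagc
Ccl12: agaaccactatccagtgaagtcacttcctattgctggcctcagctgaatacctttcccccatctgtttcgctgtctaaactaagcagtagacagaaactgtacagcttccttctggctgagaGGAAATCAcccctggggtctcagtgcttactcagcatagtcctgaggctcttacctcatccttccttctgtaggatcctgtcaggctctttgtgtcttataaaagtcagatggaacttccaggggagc
Ccl17 (chr8:94810203-94810452, plus strand) is the dendritic cell member. Capitals mark a match to TTCNNNGAA, the spaced palindrome known for STAT factors, which ends 90 bases before the start.
Ccl17: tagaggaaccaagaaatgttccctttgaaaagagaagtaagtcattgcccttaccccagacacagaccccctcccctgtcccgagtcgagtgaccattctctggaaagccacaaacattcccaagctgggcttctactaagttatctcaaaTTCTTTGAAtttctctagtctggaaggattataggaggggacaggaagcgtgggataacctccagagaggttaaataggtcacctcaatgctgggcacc
On either strand, 7.02% of all promoters hold TTCNNNGAA. The letters TATAAA, found in 12.4% of promoters, stood in Ccl8, Ccl12 and Ccl9. The letters GGAAGT, found in 19.7%, stood in Ccl12, Ccl3, Ccl6 and Ccl9, and in Ccl6 and Ccl9 it lies within their shared run. The NF-kappa B motif, found in 7.25%, stood in Ccl9. These matches describe the letters only.

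The 4 libraries held 82727595 UMIs (day 5), 76678882 (day 5 with Lac.z), 89408767 (day 14) and 104454319 (day 28), and 6583 to 12376 cells a library passed the filters. Median UMIs per barcode ran from 4864 at day 28 to 8101.5 at day 5, and the median mitochondrial share from 5.25% at day 5 to 18.6% at day 28. The day 5 pair was written by software version 3.0.2 and the later pair by 3.1.0, per the file headers, so version and time cannot be told apart. Cells were clustered without any CC chemokine gene and named from marker lists. Macrophage-like cells numbered 3262, 1538, 745 and 425 at day 5, day 5 with Lac.z, day 14 and day 28, the order used for every list of 4 values below, which is 49.4%, 23.4%, 8.55% and 3.43% of kept cells. Their median depth was 12147.5, 11180.5, 9226 and 5531 UMIs.

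The macrophage-like class consisted of 4 clusters whose shares differed between libraries. The cluster led by Cx3cr1 and C1q genes, marks of resident kidney macrophages, held 50.1%, 19.1%, 86.2% and 88.7% of the class. The cluster led by Gpnmb and Arg1, genes of repair macrophages, held 42.6%, 17.3%, 6.98% and 3.29%. The cluster led by Cxcl9 and Ifit2, interferon-response genes, held 3.07%, 57.2%, 5.91% and 7.06%, and as most of it came from the Lac.z library it may be that library and not a type. Cycling cells made up the rest. Sub-clusters of macrophage-like and monocyte-like cells are called states below and are given in libraries with at least 50 of their cells. The summed level of 14 proximal tubule markers in macrophage-like cells was 245, 602, 1103 and 2378 CPM (UMIs per 1000000 UMIs of the macrophage class), and that of 18 digestion and stress genes was 13347, 12931, 21759 and 21764 CPM. The part of these in the results below was not tested.

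Macrophage-like cells held most of the RNA of these genes. Of all UMIs of the 10 genes, 94.1%, 92.9%, 78.7% and 79.9% lay in macrophage-like cells, while the class held 63.3%, 30.4%, 10.3% and 3.31% of all UMIs. Within the class the 10 genes together took 0.655%, 0.665%, 0.676% and 0.619% of the UMIs. Their summed share thus ranged little between libraries, while single members differed by several fold. The share in the median cell was 0.505%, 0.525%, 0.481% and 0.354%, lowest at day 28, so the summed share does not describe the typical cell. Ccl2 over all kept cells stood at 529.7, 259.6, 113 and 15.9 CPM. Over all kept cells of a library, fewer cells of a type and less RNA per cell cannot be told apart, and the levels below are therefore given within classes.

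**Figure D1:**
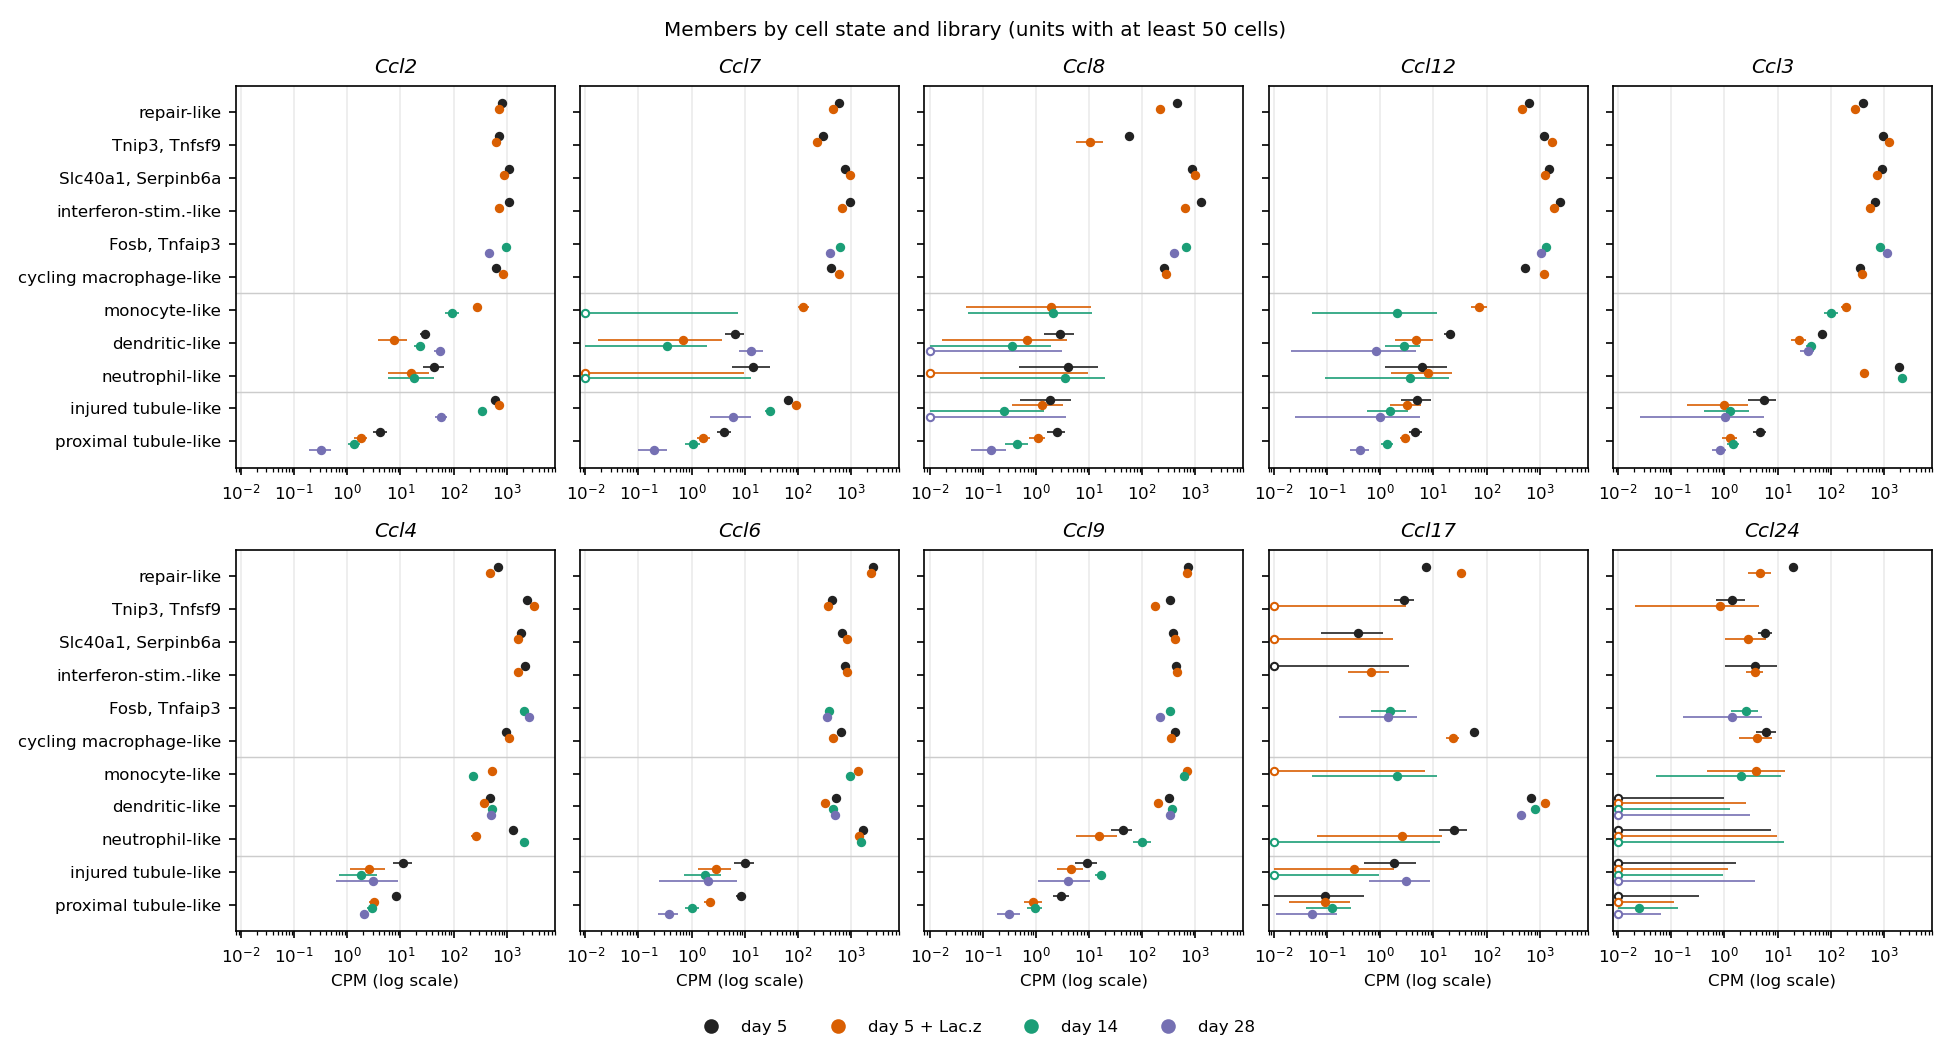
Level of each gene (CPM, log scale) in macrophage states, other immune classes and tubule classes, for units with at least 50 cells. Points are libraries, bars are exact Poisson intervals, and open circles stand for a count of 0, drawn at 0.01. Ccl17 was highest in dendritic-like groups, and Ccl2 in injured tubule-like cells reached 717 CPM, near its macrophage level.

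The CCR2 ligands were spread over macrophage states, and Ccl2 and Ccl7 were lowest at day 28. In macrophage-like cells Ccl2 stood at 793 CPM (785 to 801) at day 5, 724 CPM (712 to 736) with Lac.z, 881 CPM (860.0 to 903) at day 14 and 409.9 CPM (386 to 435) at day 28. The day 28 library was the low one, and the other 3 lay within 1.5-fold of each other. Ccl7 stood at 527, 598, 525 and 329.5 CPM. Ccl12 stood at 918, 1368, 1159.7 and 913 CPM, with the Lac.z library highest and day 5 and day 28 level. Among states of the day 5 library Ccl2 ranged from 257 CPM in the state led by Umod and Clu to 1100.0 CPM in the state led by Slc40a1 and Serpinb6a, a state with haemoglobin genes among its leading genes. The state led by Umod and Clu, which carries loop of Henle genes, was the lowest for Ccl7 too and the shallowest, with 7306 median UMIs. The interferon-stimulated-like state held the highest Ccl12 at day 5, 2383 CPM, against 633 CPM in the repair-like state. With Lac.z these states stood at 1828 and 466 CPM. At day 14 and day 28 most cells lay in the state led by Fosb and Tnfaip3, where Ccl2 stood at 968 and 459 CPM. That state held 3, 5, 552 and 258 cells, and the state led by Tnip3 and Tnfsf9 held 785, 147, 11 and 4. As each came almost wholly from the early or the later libraries, they may be those libraries and not types.

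Ccl8 differed widely between states. At day 5 it stood at 1253 CPM in the interferon-stimulated-like state, 851 in the state led by Slc40a1 and Serpinb6a, 460.1 in the repair-like state and 56.9 in the state led by Tnip3 and Tnfsf9. In the Lac.z library the values in the same order were 643, 965, 217 and 10.6 CPM. The state led by Tnip3 and Tnfsf9 was thus low in both day 5 libraries. Over the macrophage-like class Ccl8 stood at 432, 484, 674 and 303 CPM. In the cluster led by Cx3cr1 and C1q genes it stood at 293, 106, 636 and 258 CPM, where the Lac.z library was lowest and day 14 highest. In monocyte-like cells Ccl8 stood at 1.92 CPM with Lac.z and 2.06 CPM at day 14.

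Ccl3 and Ccl4 were both highest at day 28 over the class. Ccl3 stood at 597, 545, 756 and 995 CPM and Ccl4 at 1262, 1417, 1849 and 2426 CPM. Within the cluster led by Cx3cr1 and C1q genes the libraries lay closer, with Ccl3 at 901, 1128, 804 and 989 CPM and Ccl4 at 2076, 2609, 1959.9 and 2325 CPM. At day 5 the state led by Tnip3 and Tnfsf9 held the highest Ccl4, 2413 CPM, and the repair-like state stood at 696 CPM. With Lac.z these states stood at 3252 and 487 CPM. In the state led by Fosb and Tnfaip3 Ccl4 stood at 2126 CPM at day 14 and 2660.2 CPM at day 28.

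Among macrophage states at day 5 and day 5 with Lac.z, Ccl6 and Ccl9 were highest in the repair-like state. Ccl6 stood at 2614 CPM there at day 5 and 2383 CPM with Lac.z, and between 341 and 758 CPM in the other day 5 macrophage states. Ccl9 stood at 734 and 694 CPM in repair-like cells, and at 431 CPM or less in the other day 5 macrophage states. Over the class Ccl6 stood at 1483, 1048, 524 and 503 CPM and Ccl9 at 522, 450.3, 375 and 304 CPM. Day 5 was highest and day 28 lowest for both, though the day 14 and day 28 intervals of Ccl6 overlapped (507 to 541 and 476 to 531 CPM). Within the cluster led by Cx3cr1 and C1q genes Ccl6 stood at 399, 346, 349.7 and 338 CPM. In monocyte-like cells it stood at 1355 CPM with Lac.z and 968 CPM at day 14.

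Ccl17 and Ccl24 were rare in macrophages. Ccl17 stood at 8.77, 9.38, 10.3 and 4.61 CPM, and its UMIs came from 43, 19, 10 and 7 cells. Ccl24 stood at 10.7 CPM (9.77 to 11.7) at day 5, 3.58 CPM (2.78 to 4.53) with Lac.z, 2.03 CPM (1.14 to 3.35) at day 14 and 5.77 CPM (3.23 to 9.51) at day 28. The day 14 and day 28 values of Ccl24 rest on 15 UMIs each, from 9 and 3 cells. At day 5 Ccl24 was found in 6.07% of macrophage-like cells and 0.225% of T or NK-like cells, whose median depth was 4616 UMIs. With every cell thinned to 2000 UMIs these shares were 1.30% and 0%.

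The repair-like state differed from the other macrophage-like cells of its own library in most members. Both sides come from 1 library, and the state was drawn without CC chemokine genes. At day 5, with 1204 repair-like and 2058 other cells, the ratio of repair-like to other cells was 5.39 (4.26 to 6.88) for Ccl24, 4.74 (4.65 to 4.83) for Ccl6 and 2.11 (2.06 to 2.17) for Ccl9. It was 0.403 for Ccl4, 0.541 for Ccl3 and 0.549 for Ccl12. So 3 of 10 members were higher and 3 lower, where 6.21% of all genes measured were higher and 13.8% lower. Ccl2 at 1.06, Ccl7 at 1.23, Ccl8 at 1.13 and Ccl17 at 0.712 stayed within 1.5-fold. In the Lac.z library, with 201 repair-like and 1337 other cells, the ratio was 3.23 for Ccl6, 1.76 for Ccl9 and 8.91 for Ccl17. It was 0.398 for Ccl8, 0.295 for Ccl12, 0.480 for Ccl3 and 0.298 for Ccl4. Thus 3 were higher and 4 lower, where 7.39% and 19.4% of all genes were. The other cells were not alike in the 2 libraries. The interferon-stimulated-like state made up 2.54% of macrophage-like and monocyte-like cells at day 5 and 50.2% with Lac.z. The part of this in the ratios was not tested. The Ccl8 and Ccl17 values with Lac.z turned when repair cells were gated on Arg1 or Gpnmb. That Ccl17 value rests on 122 repair-like and 59 other UMIs, from few cells. At a finer sub-clustering 1 member was higher and 7 lower at day 5. There Ccl6 stood at 2.51, Ccl24 at 1.06, Ccl9 at 1.24 and Ccl7 at 0.439, and with Lac.z Ccl9 stood at 1.30. Repair-like cells were deeper, with a median of 15708 against 10401.5 UMIs at day 5.

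**Figure D2:**
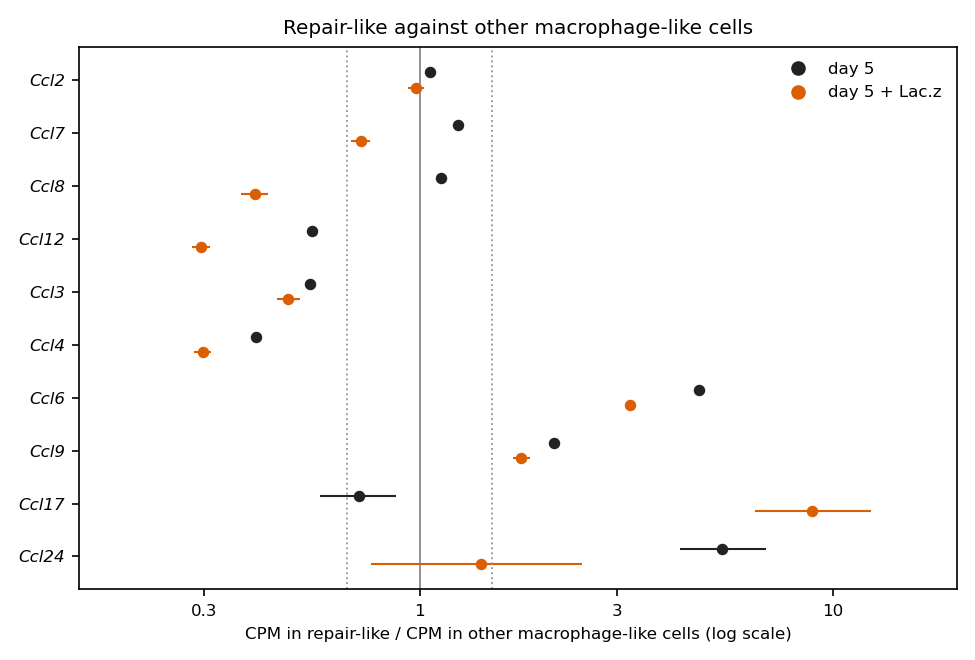
Ratio of CPM in repair-like cells to CPM in the other macrophage-like cells of the same library (log scale), at day 5 and day 5 with Lac.z. Bars are exact binomial intervals and dotted lines mark 1.5-fold. Ccl6 and Ccl9 lay to the right and Ccl3, Ccl4 and Ccl12 to the left in both libraries, while Ccl8 was past the line with Lac.z and not without. The makeup of the other cells differed between the libraries.

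The 3 comparisons between libraries all use the day 5 library and so share it. The Lac.z comparison asks what went with the probiotic at day 5. In macrophage-like cells 1 of 10 members passed 1.5-fold, Ccl24, at 0.334 (0.255 to 0.430) of its day 5 level. Among all genes measured 8.68% of genes were higher and 3.03% lower. Ccl12 at 1.49 (1.47 to 1.51) lay just inside the line, and stood at 1.59 with cells thinned to 2000 UMIs. Without the cluster led by Cxcl9 and Ifit2, a setting chosen after seeing the data, Ccl12 was 0.958 (0.935 to 0.982). The other members lay between 0.707 for Ccl6 and 1.14 for Ccl7.

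Ccl8 with Lac.z depended on the cells compared. It was 1.12 (1.09 to 1.15) of its day 5 level over the class. It was 0.362 (0.319 to 0.409) in the cluster led by Cx3cr1 and C1q genes, 0.636 (0.604 to 0.671) in that led by Gpnmb and Arg1 and 0.461 (0.438 to 0.486) in that led by Cxcl9 and Ifit2. In these clusters 5.32%, 4.23% and 4.57% of genes were lower and 7.47%, 4.90% and 13.4% higher. In the cycling cluster it was 1.17 and in the state led by Slc40a1 and Serpinb6a 1.13. The Ccl8-rich cluster led by Cxcl9 and Ifit2 held a far larger share of the class with Lac.z than without. Besides Ccl8, Ccl9 at 0.657 and Ccl24 at 0.575, on 4 UMIs, were lower in the Cx3cr1 and C1q cluster, while Ccl12 there was 1.06. In repair-like cells Ccl8 was 0.472, Ccl24 0.241 and Ccl17 4.68 times its day 5 level, where 5.29% of genes were lower and 4.95% higher. With Lac.z Ccl24 rests there on 17 UMIs and Ccl17 on 122 UMIs from few cells.

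At day 14 macrophage-like cells had Ccl8 at 1.56 (1.51 to 1.61), Ccl6 at 0.353 (0.342 to 0.365) and Ccl24 at 0.190 (0.105 to 0.316) times their day 5 level. That is 1 member higher and 2 lower of 10, where 10.4% of genes were higher and 13.8% lower. Ccl4 at 1.46, Ccl3 at 1.27 and Ccl12 at 1.26 lay inside the line. With no doublet removal Ccl8 stood at 1.34. In the Cx3cr1 and C1q cluster Ccl8 was 2.17 (2.08 to 2.26) times its day 5 level and the other 8 measured members lay between 0.876 and 1.13, where 7.72% of genes were higher and 9.71% lower. Ccl6 at day 14 was thus low over the class and within 1.5-fold in that cluster. In the Gpnmb and Arg1 cluster, with 52 cells at day 14, Ccl7 was 0.178 (0.143 to 0.220) and Ccl12 0.435 times its day 5 level. There Ccl8 was 1.64 and Ccl17 10.2 times as high, where 13.2% of genes were higher and 21.0% lower. The Ccl17 value rests on few cells, as its day 14 UMIs over the whole class came from 10 cells.

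At day 28, 8 of 10 members had passed 1.5-fold in macrophage-like cells. Ccl3 at 1.67 (1.60 to 1.74) and Ccl4 at 1.92 (1.87 to 1.97) were higher. Ccl2 at 0.517 (0.486 to 0.549), Ccl7 at 0.626 (0.584 to 0.670), Ccl6 at 0.339 (0.321 to 0.359) and Ccl9 at 0.582 (0.541 to 0.624) were lower. Ccl17 at 0.526 (0.270 to 0.930) and Ccl24 at 0.538 (0.299 to 0.897) were lower too, on 12 and 15 UMIs at day 28. With no doublet removal Ccl3 stood at 1.32, and without the 1% of cells richest in it Ccl17 stood at 3.43. Of all genes, 14.5% were higher and 16.1% lower. Ccl8 at 0.701 and Ccl12 at 0.995 lay inside the line. Within the Cx3cr1 and C1q cluster Ccl2 at 0.527, Ccl7 at 0.565 and Ccl12 at 0.661 were lower, where 10.9% of genes were higher and 12.4% lower. Ccl3 at 1.10, Ccl4 at 1.12, Ccl6 at 0.847 and Ccl9 at 0.697 lay inside the line there. Ccl2 and Ccl7 were thus lower within the cluster as over the class, and the differences of Ccl3, Ccl4, Ccl6 and Ccl9 passed the line over the class and not within it.

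**Figure D3:**
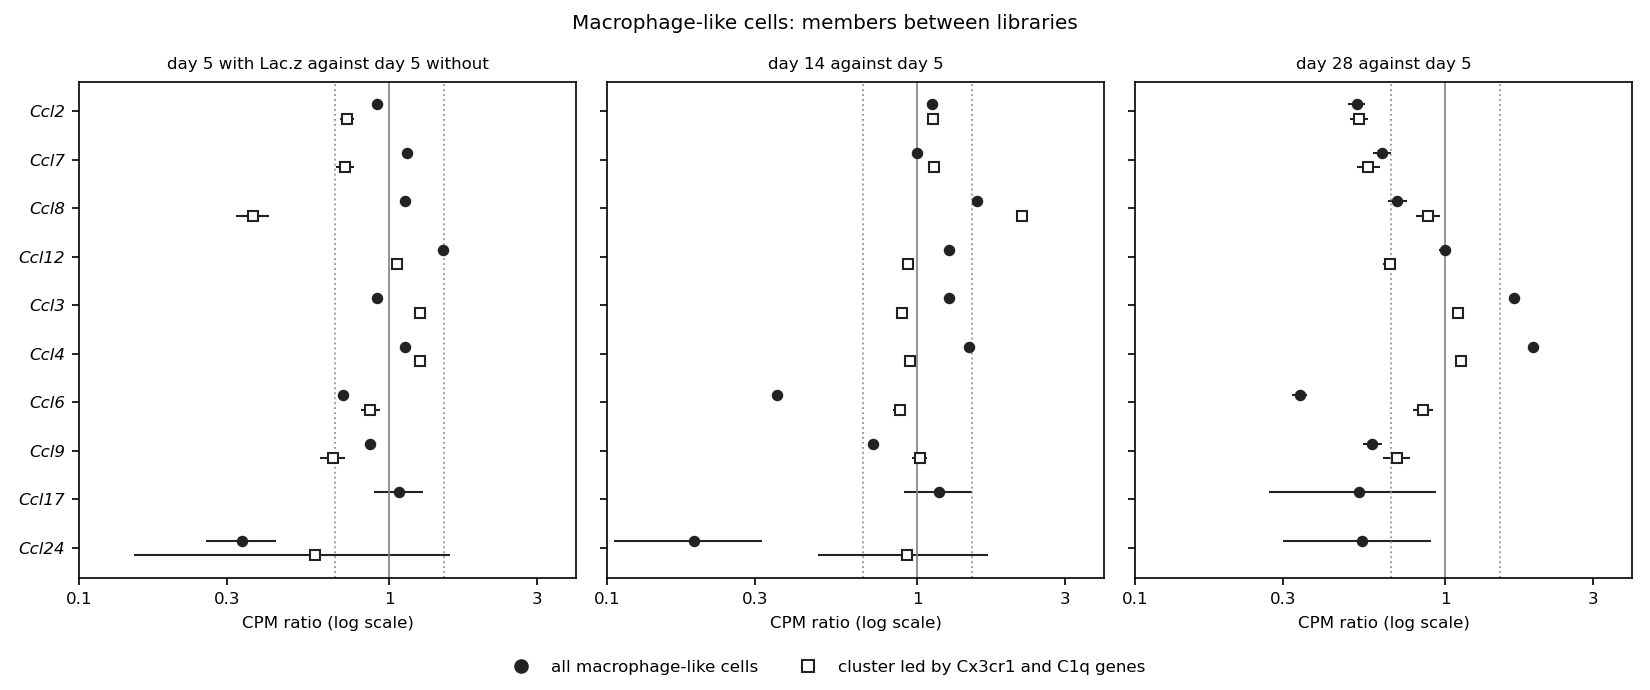
Ratio of CPM between libraries (log scale) for each gene in all macrophage-like cells (circles) and in the cluster led by Cx3cr1 and C1q genes (squares). Bars are exact binomial intervals and dotted lines mark 1.5-fold. Ccl6 at day 14 and day 28 lay far left over the class and near 1 in the cluster, while Ccl2 at day 28 lay near 0.517 in both.

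In dendritic-like cells Ccl17 was highest with Lac.z and lowest at day 28. It stood at 695 CPM (669 to 722) at day 5, 1278 CPM (1220.3 to 1337) with Lac.z, 825 CPM (792 to 859) at day 14 and 447 CPM (409.6 to 486) at day 28, and the class held 85.8%, 90.7%, 96.3% and 96.2% of all Ccl17 UMIs. The 4 intervals did not overlap. The ratio to day 5 was 1.84 (1.73 to 1.95) with Lac.z, 1.19 at day 14 and 0.643 (0.584 to 0.705) at day 28. Mature dendritic-like cells held 2449, 2109 and 2708 CPM at day 5, with Lac.z and at day 14, from 27, 15 and 21 cells. The group led by Ifitm1 and Il1r2 stood at 498 and 1744 CPM at day 5 without and with Lac.z, from 69 and 32 cells. Type 1 dendritic-like cells stood at 29.2 and 54.1 CPM, from 44 and 29 cells.

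With Lac.z, of 7 measured members in dendritic-like cells Ccl17 was higher, and Ccl2, Ccl12, Ccl3, Ccl6 and Ccl9 were lower at 0.264, 0.236, 0.365, 0.615 and 0.641, where 5.81% of genes were higher and 6.34% lower. At day 14 Ccl12 and Ccl3 were lower, 2 of 7, where 7.26% of genes were higher and 11.3% lower. At day 28 Ccl2 was higher at 1.94 (1.40 to 2.66), and Ccl12, Ccl3 and Ccl17 were lower, where 7.93% of genes were higher and 15.0% lower. The summed level of 14 macrophage markers in the dendritic class was 5679, 1138, 2483 and 3494 CPM. The sub-cluster led by Lpl and C1qb, which scored highest for the resident-like macrophage list, held 81 of 258 class cells at day 5. With Lac.z it held 14 of 108. The part of these markers and of this sub-cluster in the values above was not tested. Ccl24 had 0 UMIs in dendritic-like cells of all 4 libraries.

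**Figure D4:**
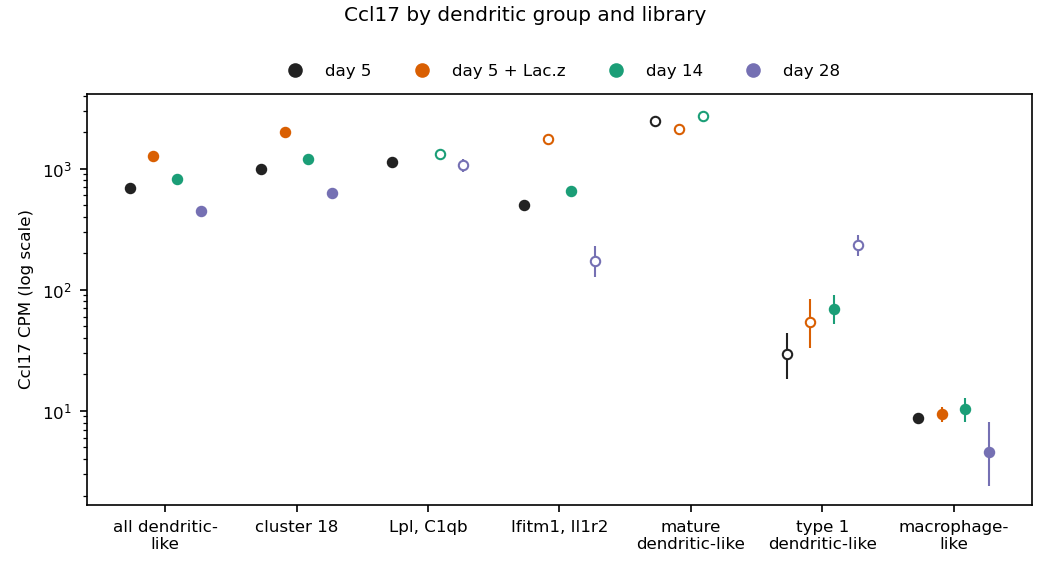
Ccl17 level (CPM, log scale) in dendritic groups and macrophage-like cells by library, with exact Poisson intervals. Open symbols are groups of fewer than 50 cells, and groups under 15 cells are left out. Mature dendritic-like cells stood above 2000 CPM where shown, and macrophage-like cells at 10.3 CPM or below.

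Other immune cells held parts of the family. Neutrophil-like cells stood at 1903, 415 and 2188 CPM of Ccl3 at day 5, with Lac.z and at day 14, and at 1297, 259.5 and 2102 CPM of Ccl4. The Lac.z library, with 129 such cells against 183, was the low one for both. Ccl3 was 0.218 (0.183 to 0.258) and Ccl4 0.200 (0.160 to 0.247) times its day 5 level with Lac.z, 2 of 3 measured members, where 6.76% of genes were higher and 15.7% lower. Ccl6 there was 0.824. At day 14 Ccl4 was higher at 1.62 (1.45 to 1.82), 1 of 3, where 12.9% of genes were higher and 12.5% lower. In T or NK-like cells Ccl4 stood at 201, 361, 509.6 and 354 CPM, with day 5 lowest. Its ratio to day 5 was 1.80 (1.59 to 2.04), 2.54 (2.29 to 2.81) and 1.76 (1.56 to 1.98), 1 of 2 measured members each time, where 4.63%, 7.29% and 9.92% of genes were higher and 3.16%, 5.38% and 6.98% lower. These cells held 9.95% of Ccl4 UMIs at day 14. Dendritic-like cells held 21.2% of Ccl6 UMIs and 24.1% of Ccl9 UMIs at day 14, against 62.5% and 65.1% in macrophage-like cells.

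Proximal tubule-like cells held traces of the members. At day 5 the 8 members other than Ccl17 and Ccl24 stood between 2.44 CPM for Ccl8 and 8.41 CPM for Ccl4. All measured members were lower in each comparison, 8 of 8 with Lac.z, 7 of 7 at day 14 and 7 of 7 at day 28, where 2.00%, 5.16% and 6.39% of genes were lower and 6.97%, 8.88% and 7.33% higher. The complement genes C1qa, C1qb and C1qc, macrophage markers, were lower in these cells as well and together stood at 66.6, 27.3, 13.7 and 6.25 CPM. Per C1q UMI, the same 8 members stood at 1.07 to 1.65 times their ratio in macrophage-like cells at day 5. Of members with at least 50 tubule UMIs, 1 of 4, 1 of 5, 3 of 4 and 1 of 1 were higher past 1.5 times in the 4 libraries, where 99.8%, 99.8%, 99.9% and 100% of all genes measured there were. At day 14 these 8 ran from 0.785 (0.465 to 1.24) for Ccl8 to 3.05 (2.16 to 4.18) for Ccl9. Counted per UMI of Lyz2, Cd74 and Apoe, macrophage genes that other cells express too, 0 members were higher and 4, 5, 4 and 1 were lower, so the direction depends on the reference. With cells thinned to 2000 UMIs, 1, 1 and 0 members were past 1.5-fold lower between libraries, few having 50 UMIs left. Whether these traces are macrophage RNA was not tested.

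Injured tubule-like cells held more Ccl2 and Ccl7. This class, marked by the kidney injury gene Havcr1, held 124, 226, 376 and 109 cells. Ccl2 stood at 597, 717, 336 and 58.2 CPM and Ccl7 at 64.8, 93.3, 29.6 and 6.02 CPM. Per C1q UMI, Ccl2 was 58.6 (55.4 to 61.9), 662 (633 to 692), 411 (387 to 436) and 604 (455 to 787) times as abundant as in macrophage-like cells of the same library. Ccl7 was 9.57, 104, 60.9 and 77.7 times as abundant, the last on 6 UMIs. Per UMI of Lyz2, Cd74 and Apoe, Ccl2 was 36.4, 45.1, 13.1 and 4.90 times as abundant, and Ccl7 was 5.94, 7.11 and 1.94 times in the first 3 libraries. With no doublet removal and per C1q UMI, Ccl2 was 35.1, 80.6, 50.2 and 458 times and Ccl7 2.79, 14.6 and 7.78 times as abundant. These sizes thus depend on the reference genes and on doublet removal. The class held 403, 74, 60 and 4 C1q UMIs, and 99.9%, 100%, 100% and 100% of all genes measured there were past 1.5 times higher by this count. Ccl8 was 0.326 and Ccl12 0.422 times as abundant at day 5, on 4 and 11 UMIs, below the limit of 50. With Lac.z the class held 4 Ccl8 and 10 Ccl12 UMIs beside its 74 C1q UMIs, so these low ratios are of day 5 only. The class held 3.57%, 13.6%, 16.5% and 4.65% of all Ccl2 UMIs. Against day 5, Ccl2 was 1.20 (1.12 to 1.28) with Lac.z, 0.562 (0.520 to 0.607) at day 14 and 0.0974 (0.0736 to 0.127) at day 28, and Ccl7 was 1.44, 0.457 and 0.0930. With Lac.z 0 of 2 measured members passed 1.5-fold, where 12.8% of genes were higher and 14.2% lower. At day 14 Ccl2 and Ccl7 were lower and Ccl9 higher at 1.84 (1.10 to 3.21), where 10.9% of genes were lower and 15.8% higher. At day 28 Ccl2 and Ccl7 were lower, where 17.5% of genes were higher and 7.86% lower.

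A few cells carried this Ccl2, and at day 5 and day 14 the levels of the class rest on them. Cells with at least 10 Ccl2 UMIs, a limit set after the values were seen, were 11 of 124 at day 5, 10 of 226 with Lac.z, 14 of 376 at day 14 and 1 of 109 at day 28. They held 98.0%, 98.8%, 97.0% and 17.2% of the Ccl2 UMIs of the class, and the highest cell held 354, 879, 595 and 10. At day 5 they stood at 1961 CPM of Havcr1, 1276 CPM of the adhesion gene Vcam1, 1785 CPM of the neutrophil chemokine Cxcl1 and 348 CPM of Ccl7. The other cells stood at 537, 186, 234 and 4.94 CPM of the same genes. With Lac.z Havcr1 stood at 1933 against 457 CPM and Ccl7 at 749 against 2.19 CPM. At day 14 Havcr1 stood at 1060.0 against 334 CPM, Ccl7 at 376 against 2.18 CPM and Ccl9 at 159 against 5.46 CPM. In the other cells of day 5 Ccl9 stood at 5.49 CPM. The higher Ccl9 of the class at day 14 thus lay in the Ccl2-rich cells. Other marks of injured tubule were not all higher in the Ccl2-rich cells. The secreted protein gene Spp1 stood at 13995 against 27907 CPM at day 5, 17041 against 22541 with Lac.z and 42951 against 16213 at day 14. The keratin gene Krt8 stood at 739 against 901, 841 against 507 and 925 against 547 CPM. The summed injured tubule markers stood at 19297 against 33113, 22697 against 25477 and 48440.4 against 18802 CPM, lower in the Ccl2-rich cells of both day 5 libraries and higher at day 14. The Ccl2-rich cells were deeper, with medians of 35548, 40360 and 20268 UMIs against 12931, 11302 and 7382. Summed macrophage markers stood at 1725 against 834 CPM at day 5, 263 against 586 with Lac.z and 1329 against 1229 at day 14. Fibroblast and mural markers stood at 7.78 against 201, 7.89 against 25.9 and 777 against 247 CPM. The part of doublets in these cells was not tested.

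**Figure D5:**
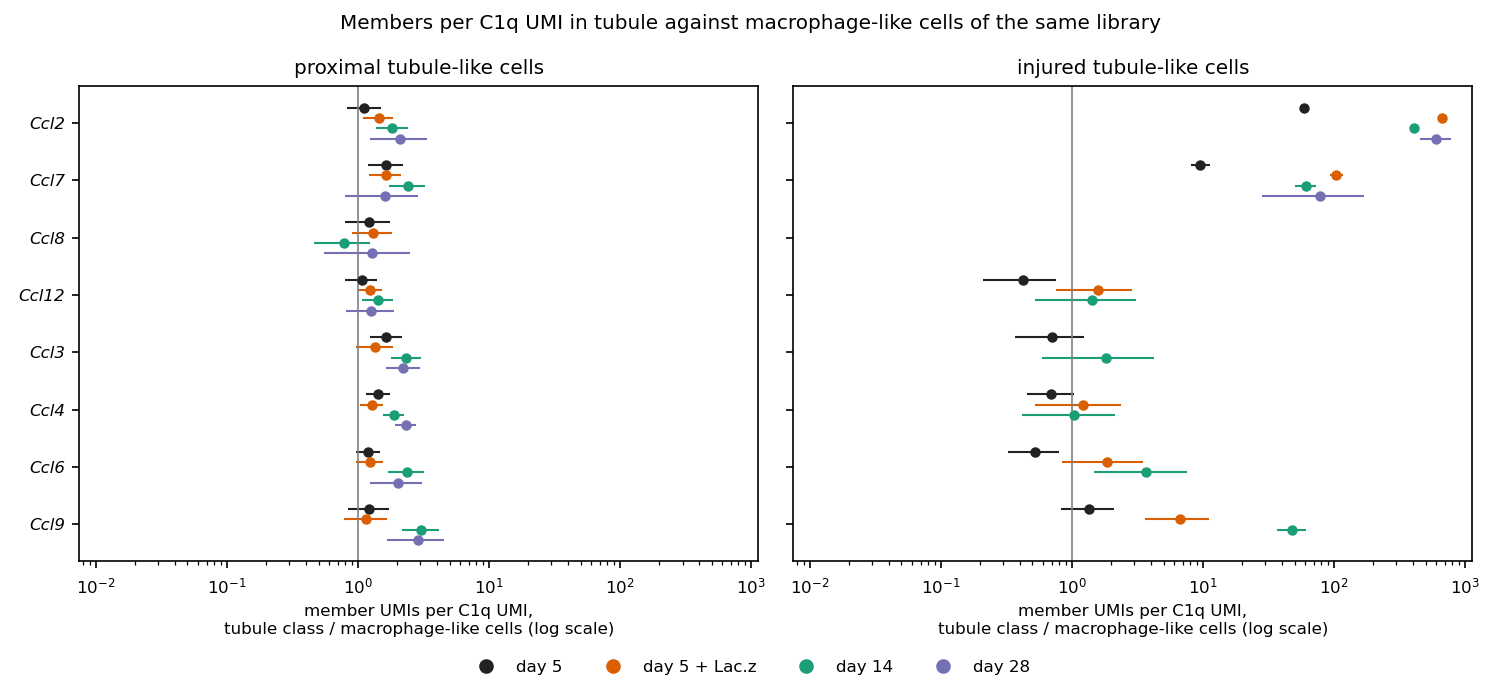
UMIs of 8 genes per C1q UMI, without Ccl17 and Ccl24, in proximal tubule-like and injured tubule-like cells, as a ratio to macrophage-like cells of the same library (log scale), for values with at least 5 UMIs. Bars are exact binomial intervals. The proximal tubule values of these 8 genes lay between 0.785 and 3.05, while Ccl2 in injured tubule-like cells lay at 58.6 or above.

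Within single macrophage-like cells, some members were detected together, both neighbouring genes and genes that are not next to each other. With each cell thinned to 2000 UMIs, which left out 34, 18, 3 and 8 shallower cells, Ccl4 was found in 74.1% of day 5 cells with Ccl3 and 33.3% of those without. Ccl7 was found in 45.8% of cells with Ccl2 and 12.3% of those without. Ccl9 was found in 58.2% of cells with Ccl6 and 33.6% of those without. Of pairs that are not next to each other, Ccl12 was found in 64.9% of cells with Ccl2 and 35.4% of those without. Ccl8 was found in 27.0% of cells with Ccl7 and 13.6% of those without. The other libraries had the same order for all these pairs. Ccl4 and Ccl6 went the other way at day 5, with Ccl6 in 57.2% of cells with Ccl4 and 67.0% of cells without, and at day 14 the shares were 46.7% and 45.3%. In T or NK-like cells of day 5, which should lack Ccl2 and Ccl6, the thinned shares were 1.95% and 1.70%, against 48.2% and 62.0% in macrophage-like cells.

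Across 22 units, each a macrophage or monocyte state or a dendritic group in 1 library with at least 50 cells, levels of some members ran together. Pearson's r of log2(CPM + 1) was 0.96 for Ccl7 with Ccl12, 0.91 for Ccl2 with Ccl7 and 0.84 for Ccl8 with Ccl12. It was 0.84 for Ccl6 with Ccl9 and 0.79 for Ccl3 with Ccl4. It was -0.08 for Ccl4 with Ccl6 and -0.74 for Ccl3 with Ccl17. Pairs across the 2 blocks of chromosome 11 were high as well, with 0.90 for Ccl12 with Ccl3, 0.85 for Ccl7 with Ccl3 and 0.84 for Ccl2 with Ccl3. Units of 1 library share its depth and its free RNA, so these values are descriptions without a test. Of 7982 other genes, those most like Ccl2 were the C5a receptor C5ar1 (0.96), heme oxygenase Hmox1 (0.95) and Fcrls (0.95). Those most like Ccl7 were Gas6 (0.96), Tex264 (0.95) and Tmem171 (0.95). For Ccl8 they were Igf1 (0.95), Cp (0.93) and Wwp1 (0.93). For Ccl12 they were Tmem171 (0.97), Trim47 (0.97) and Mag (0.97). Ccl3 was most like Abhd12 (0.93), Ehd4 (0.93) and Pla2g15 (0.92). Ccl4 was most like Egr1 (0.86), Cd86 (0.86) and Il10 (0.81). Ccl6 was most like Capg (0.91), Cyba (0.90) and Fam20c (0.89). Nearest to Ccl9 stood Slc35f6 (0.95), Lrp1 (0.94) and Rnf149 (0.92). Nearest to Ccl17 stood Alcam (0.91), Eef1g (0.88) and H2-DMb2 (0.88). Nearest to Ccl24 stood Rab1a (0.86), Cenpb (0.84) and Snx2 (0.83).

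The receptors of these ligands lay in several classes. Ccr2 stood at 449, 374, 294 and 228 CPM in macrophage-like cells and at 1095 CPM with Lac.z and 561 CPM at day 14 in monocyte-like cells. Ccr1, the receptor of Ccl3, Ccl6 and Ccl9, stood at 274, 208, 99.6 and 30.0 CPM in macrophage-like cells and at 947 CPM in neutrophil-like cells of day 5. Ccr4, the receptor of Ccl17, stood at 12.3, 17.1, 4.28 and 7.13 CPM in T or NK-like cells and at 0 in macrophage-like and dendritic-like cells. Of 14 receptors and scavengers, 4 had enough UMIs in macrophage-like cells, and 0 of them passed 1.5-fold with Lac.z, where 8.68% of genes were higher and 3.03% lower. At day 14 and day 28 the atypical receptor Ccrl2 was higher at 1.80 and 1.58, and 2 were lower, the lowest being Ccr1 at 0.363 (0.337 to 0.392) and 0.109 (0.0864 to 0.137). Among all genes, 10.4% and 14.5% were higher and 13.8% and 16.1% lower in these comparisons.

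Other lists gave the setting of the members in macrophage-like cells. Of all genes measured there, 8.68%, 10.4% and 14.5% were higher and 3.03%, 13.8% and 16.1% lower in the 3 comparisons. Of 20 NF-kappa B pathway genes, 0 were higher and 1 lower with Lac.z, 12 and 0 at day 14, and 10 and 1 at day 28. Their median ratios were 1.00, 1.64 and 1.60, where the median log2 ratios of all genes were 0.04, -0.07 and -0.0016. Those of the 10 members were -0.01, 0.20 and -0.73 on the log2 scale. The cytokine gene Il1b led the NF-kappa B list, at 5.34 times at day 14 and 4.78 times at day 28. Of 18 digestion and stress genes, 3, 13 and 14 were higher in the comparisons in the same order, led by Hspa1b at 2.28, Fosb at 5.33 and Hspa1a at 7.40 times. The part of these in the higher Ccl3 and Ccl4 was not tested. Of 14 measured type 2 cytokine response genes, 1 was higher and 5 lower with Lac.z, 4 and 2 at day 14, and 5 and 5 at day 28. Among other chemokines, the CXCR3 ligand Cxcl10 was 2.68 and Cxcl1 0.452 times as high with Lac.z. Pf4 was 0.518 times as high at day 14 and Ccl5 12.8 times at day 28.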

How the data were processed

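Kidney cells were dissociated by enzyme digestion and red cell lysis, per the labels' protocols. The deposited matrices hold raw UMI counts per gene and barcode on mm10, written by software versions 3.0.2 and 3.1.0 per the file headers. Barcodes with at least 200 genes and under 50% mitochondrial UMIs were kept. Scrublet scores were computed in each library and the top share removed at an expected doublet rate of 0.8% per 1000 cells, since Scrublet's own threshold marked few cells. Between 6583 and 12376 cells a library remained, and libraries shared 15 to 43 barcodes. Cells were normalised, 2000 variable genes without CC chemokines gave 30 components and 20 neighbours, and Leiden clusters (resolution 1.0, sub-clusters 0.5) were named from marker lists. Cells with at least 20% haemoglobin UMIs were classed as erythroid. Levels are summed UMIs per 1000000 (CPM), with exact Poisson intervals. Ratios carry exact conditional binomial intervals and shares exact Clopper-Pearson ones, all at 95% and for counting error only. PCR and cell sampling add error that they do not cover. With 1 library a group no test was run. A gene was called past 1.5-fold with at least 50 UMIs over both sides, in units of at least 50 cells. The ratio code was tested on simulated data. Alternatives changed the clustering, the filters, doublet removal, thinning, the UMI minimum, the repair gate and the reference genes. All 10 members are named, with the most changed gene each way of each list and the 3 genes most like each member. Members and lists were chosen with earlier results of these data known. Python 3.11.15, numpy 2.4.6, scipy 1.17.1, scanpy 1.11.5, leidenalg 0.10.2 and matplotlib 3.10.9 were used.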

Additional observations from a re-analysis of the deposited data

Results flagged for a closer look

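Several members passed 1.5-fold one way in one cell class and the other way in another, with 1 library a group, so none of these differences between classes was tested. With Lac.z at day 5, Ccl4 stood at 1.80 (1.59 to 2.04) times its day 5 level in T or NK-like cells, 0.200 (0.160 to 0.247) in neutrophil-like cells and 0.372 (0.278 to 0.498) in proximal tubule-like cells. At day 14 Ccl4 stood at 2.54 (2.29 to 2.81) in T or NK-like, 1.62 (1.45 to 1.82) in neutrophil-like and 0.343 (0.259 to 0.455) in proximal tubule-like cells. Ccl9 at day 14 stood at 1.84 (1.10 to 3.21) in injured tubule-like and 0.320 (0.196 to 0.524) in proximal tubule-like cells. Outside the Ccl2-rich injured tubule-like cells Ccl9 stood at 5.49 CPM at day 5 and 5.46 CPM at day 14. At day 28 Ccl2 stood at 1.94 (1.40 to 2.66) in dendritic-like cells, 0.517 (0.486 to 0.549) in macrophage-like cells, 0.0762 (0.0416 to 0.134) in proximal tubule-like cells and 0.0974 (0.0736 to 0.127) in injured tubule-like cells. Ccl3 at day 28 stood at 1.67 (1.60 to 1.74) in macrophage-like, 0.530 (0.376 to 0.732) in dendritic-like and 0.176 (0.115 to 0.267) in proximal tubule-like cells. Ccl4 at day 28 stood at 1.92 (1.87 to 1.97) in macrophage-like, 1.76 (1.56 to 1.98) in T or NK-like and 0.245 (0.185 to 0.325) in proximal tubule-like cells. The proximal tubule-like values rest on traces, as the day 5 cells held 46 Ccl2, 51 Ccl3, 93 Ccl4 and 33 Ccl9 UMIs. The summed C1q genes, macrophage markers, were lower in this class too. Their ratios to day 5 were 0.410 (Lac.z), 0.205 (day 14) and 0.0939 (day 28). Whether the low tubule values reflect less macrophage RNA was not tested.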

How the results depend on the processing

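Single members kept their value within counting error in 438 repeats and moved in 195. In 10 repeats a member past 1.5-fold turned direction. Members inside the line that turned are counted as moved. Among settings chosen after seeing the data 75 kept their value and 37 moved. Some of these 37 turned too, such as Ccl8 with Lac.z. It stood at 1.12 over the macrophage-like class and 0.654 without the cluster led by Cxcl9 and Ifit2. Counts of members past 1.5-fold stayed within 1.5 times in 133 repeats and moved in 35, and in 22 and 2 for the later settings. The cause was not tested for any of these. In macrophage-like cells with Lac.z, 0 higher became 2 when cells were thinned, 1 without the top 1% of cells and 1 without the cluster led by Cxcl9 and Ifit2, a setting chosen after seeing the data in which 1 lower became 2. At day 14, 1 higher became 2 with each library clustered separately and 0 with no doublet removal, and at day 28, 2 higher became 1 with no doublet removal. Ccl17 at day 28 turned to 3.43 without the top 1% of cells. In proximal tubule-like cells with Lac.z, 8 of 8 measured members lower became 5 of 6 with a mitochondrial limit of 25%. It became 0 of 0 with at least 200 UMIs, 1 of 1 thinned and 4 of 4 without the top 1%. At day 14, 7 of 7 lower became 1 of 1 with 200 UMIs, 1 of 1 thinned and 2 of 2 without the top 1%. There 0 higher became 1 of 10 with at least 1 UMI. At day 28, 7 of 7 lower became 4 of 4 at Leiden resolution 2 and 4 of 4 with the 25% limit. It became 1 of 1 with 200 UMIs, 0 of 0 thinned and 2 of 2 without the top 1%. Where fewer members were measured, nearly all of them were thus still lower. For repair-like cells at day 5, 3 lower became 5 with the Arg1 or Gpnmb gate, 3 higher became 1 and 3 lower became 7 at sub-cluster resolution 1, and 3 higher became 5 thinned. With Lac.z, 3 higher became 1 at resolution 1. Under the gate Ccl8 turned to 1.14 and Ccl17 to 0.101, and at resolution 1 Ccl17 stood at 0. Per UMI of Lyz2, Cd74 and Apoe in place of C1q, the members higher in proximal tubule-like cells went from 1, 1, 3 and 1 to 0 in every library and those lower from 0 to 4, 5, 4 and 1. Ccl3 at day 5 turned to 0.658, Ccl7 with Lac.z to 0.244, Ccl2, Ccl3 and Ccl4 at day 14 to 0.211, 0.269 and 0.216, and Ccl4 at day 28 to 0.181. With no doublet removal the higher count became 0 of 2 measured at day 5 and 2 of 2 at day 28. In injured tubule-like cells 2 of 2 became 4 of 4 with Lac.z and 1 of 1 became 0 of 0 at day 28. No library could be left out with 1 a group. No paired analysis was possible because each group holds 1 library. Ccl17 and Ccl24 in macrophages and the members in proximal tubule-like cells rest on few UMIs, which limits their precision.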
